A study of Mus musculus with 12 samples.

Results

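The mouse zinc finger genes described here are the protein-coding genes of chromosomes 7 and 17 whose symbols begin with Zfp or Zscan followed by a number, leaving out Zfp541 itself. There were 150 of them among 21951 protein-coding genes of the deposited gene table, 103 on chromosome 7 and 47 on chromosome 17. The symbol rule found 262 more on other chromosomes. The rule used name and position and no levels, but it was set with earlier results of these data known. The name covers several kinds of protein: most members are C2H2 zinc finger genes that sit in tandem arrays, some carry a SCAN domain (the Zscan genes), and Zfp36 and Zfp36l2 encode CCCH zinc finger proteins that bind mRNA.

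The cells came from testes of C57BL/6 mice that had been given WIN 18,446, an inhibitor of retinoic acid synthesis, for 7 days from day 2 after birth, and then an injection of retinoic acid, a scheme that synchronises the entry of germ cells into meiosis. All groups were treated alike. Single germ cells were picked by mouth pipette and their RNA was counted from its 3′ end with unique molecular identifiers (UMIs, tags that mark single cDNA molecules). The groups were Zfp541 knockout (KO) at 260 h after retinoic acid, wild type (WT) at 260 h, KO at 360 h and WT at 360 h, with 3 libraries each. The 260 h groups were labelled early pachytene and the 360 h groups late pachytene, the stage of meiotic prophase in which homologous chromosomes are fully paired. Nothing in the labels ties a library to an animal, and every p-value below therefore rests on library-to-library spread, part of which may be technical.

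Many C2H2 zinc finger proteins of rodents carry a KRAB domain. In these proteins the fingers bind DNA, often in transposable elements, and the KRAB domain recruits the co-repressor TRIM28, which brings the histone methyltransferase SETDB1 and heterochromatin proteins to the site. The genes multiply by tandem duplication, so that neighbours in an array are often close relatives. ZFP541, the protein missing in the knockout, is made in spermatocytes and binds KCTD19 and histone deacetylases.

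In all, 929 of 1152 barcodes were kept cells, 50 to 94 per library, all 12 libraries used the same 96 well barcodes, and the libraries held 3601518 to 27202665 gene UMIs. The members took 0.232% to 0.278% of the gene UMIs of a library. Defining germ cell markers (Ddx4, Dazl, Tex101, Tex15 and Mael) summed to 2675 to 5026 CPM (UMIs scaled to a common library size) in every library. The 7 pachytene markers summed to 218 to 332 CPM in KO and 525 to 1139 CPM in WT libraries at 260 h, and to 1167 to 1702 CPM in KO and 3161 to 4028 CPM in WT libraries at 360 h. The 5 markers of meiotic prophase summed to 2994 to 3497 CPM in KO and 1912 to 2252 CPM in WT libraries at 360 h, and to 3115 to 4563 CPM in KO and 3793 to 4114 CPM in WT libraries at 260 h. The 6 markers of spermatogonia summed to 179 to 591 CPM in KO and 63.0 to 204 CPM in WT libraries at 360 h, and to 507 to 673 CPM in KO and 437 to 831 CPM in WT libraries at 260 h. At 260 h WT libraries 1 and 2 held more Leydig cell transcripts (96.2 and 56.0 CPM over 5 markers, with Insl3 at 0) than any other library (22.3 CPM at most). Blood and immune markers spanned 2.36 to 473 CPM, highest in WT library 1 of 260 h, and Sertoli cell markers 5.40 to 46.1 CPM. Among the 360 h libraries, WT library 3 held 147 CPM of spermatid markers, against 7.39 CPM at most elsewhere. The part of these cell states in the results below was not tested. Zfp541 mRNA was counted in KO and WT libraries alike and was not called at 260 h (log2 fold change 0.24, edgeR adjusted p = 0.846) or at 360 h (−0.32, adjusted p = 0.532). Since the sources used here do not say which part of the gene was deleted, a 3′ count does not check the genotype labels.

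Promoter sequence is shown for a few members. Zfp820 was the one member lower in KO at 260 h, and Zfp976 and Zfp946 were the well expressed members that rose the most at 360 h. Zscan22, Zscan18 and Zfp942 were picked among the named members lower in KO at 360 h because they held the letters TGACGT. Lower members without these letters are not shown, among them Zfp128, which changed more than Zscan18 and Zfp942. The windows are the 250 bases before the RefSeq start in GRCm38.p6, read 5′ to 3′ on the strand of the gene. Of the 150 members, 120 had a RefSeq start within 500 bases of the deposited 5′ end. Capitals mark matches, on either strand, of 5 motifs. These were TGACGT, the core of the cAMP response element, the CCAAT box, the GC box GGGCGG, the letters GTTGCC of the X-box and the E-box CACGTG. In Zscan18 the letters TGACGT and their reverse complement overlap. Zfp944, which lies in the same array as Zfp942, shared an unbroken run of 157 bases with the Zfp942 window and is not printed.
Zfp820 (chr17:21845760-21846009, minus strand): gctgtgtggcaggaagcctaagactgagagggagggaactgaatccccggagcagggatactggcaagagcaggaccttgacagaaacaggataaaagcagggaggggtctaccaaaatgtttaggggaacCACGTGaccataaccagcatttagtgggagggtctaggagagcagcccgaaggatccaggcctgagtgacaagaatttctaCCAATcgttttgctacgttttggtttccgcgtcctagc
Zfp976 (chr7:42642605-42642854, minus strand): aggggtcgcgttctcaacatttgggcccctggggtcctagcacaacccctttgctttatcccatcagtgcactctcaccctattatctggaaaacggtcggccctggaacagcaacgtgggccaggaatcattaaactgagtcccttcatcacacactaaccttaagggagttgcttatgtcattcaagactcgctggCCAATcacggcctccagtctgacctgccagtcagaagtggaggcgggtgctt
Zfp946 (chr17:22423952-22424201, plus strand): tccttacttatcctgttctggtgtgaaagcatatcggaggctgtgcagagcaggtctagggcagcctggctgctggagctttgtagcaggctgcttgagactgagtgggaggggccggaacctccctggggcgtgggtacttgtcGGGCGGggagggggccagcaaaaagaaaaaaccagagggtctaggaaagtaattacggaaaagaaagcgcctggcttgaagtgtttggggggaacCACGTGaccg
Zscan22 (chr7:12897559-12897808, plus strand): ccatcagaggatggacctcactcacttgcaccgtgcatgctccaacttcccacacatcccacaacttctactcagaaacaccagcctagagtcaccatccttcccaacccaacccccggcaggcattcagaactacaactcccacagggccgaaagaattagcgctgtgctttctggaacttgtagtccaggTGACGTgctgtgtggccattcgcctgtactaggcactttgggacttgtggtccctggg
Zscan18 (chr7:12803639-12803888, minus strand): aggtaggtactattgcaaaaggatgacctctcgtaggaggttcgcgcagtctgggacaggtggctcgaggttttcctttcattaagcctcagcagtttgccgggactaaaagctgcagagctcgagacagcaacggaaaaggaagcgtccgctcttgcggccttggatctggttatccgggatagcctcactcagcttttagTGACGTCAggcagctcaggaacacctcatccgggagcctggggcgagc
Zfp942 (chr17:21962465-21962714, minus strand): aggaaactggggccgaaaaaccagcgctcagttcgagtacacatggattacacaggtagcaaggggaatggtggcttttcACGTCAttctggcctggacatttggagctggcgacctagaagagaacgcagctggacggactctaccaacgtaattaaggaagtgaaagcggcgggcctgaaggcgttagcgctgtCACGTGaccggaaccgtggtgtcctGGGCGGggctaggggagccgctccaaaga
The windows of Zfp820 and Zfp946 shared a run of 16 bases that holds the E-box.

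TGACGT stood in 8.41% of the 13811 promoters of protein-coding genes and in 6.67% of those of the members. Of the members higher in KO at 360 h, 0 of 13 with a matched promoter held it, and of those lower in KO, 4 of 14 did (28.6%), namely Zscan22, Zscan18, Zfp942 and Zfp944. CCAAT was in 53.8% of the promoters of the members higher in KO and 42.9% of those lower, against 50.8% of all members and 36.6% of all promoters. CACGTG was in 8 of 21 matched promoters (38.1%) of the chromosome 17 array that holds Zfp820, against 11.7% of all members and 7.32% of all promoters. GGGCGG was in 35.0% of the members' promoters and 47.5% of all, and GTTGCC in 5.83% and 10.6%. A match is only a match of letters in this window, and neighbours with a shared run are not independent.

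Of the 150 members, 135 had enough counts to be tested among 20279 genes in all. The 15 others were scarce. Among them were all 8 Zscan4 genes and pseudogene-named copies, whose proteins mark early mouse embryos at genome activation and fluctuating embryonic stem cells. The Zscan4 rows held 0 to 16 UMIs over all 12 libraries, and Zscan4e and Zscan4-ps2 held 0. The remainder of the 15 were Zfp784, Zscan5b, Zfp418, Zfp114, Zfp575, Zfp82 and Zfp764, with 21 to 80 UMIs.

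The best expressed member was Zfp318, which in B cells controls which immunoglobulin heavy chain mRNA is made. It was at 249.8 to 259 CPM in KO libraries and 237 to 394 CPM in WT libraries at 260 h, and at 286 to 324 CPM in KO and 337 to 456 CPM in WT libraries at 360 h. Next came Zfp574 (mean 185 CPM over the 12 libraries), Zfp110 (a partner of the neurotrophin receptor p75), Zfp598 (a ubiquitin ligase that marks collided ribosomes, mean 72.9 CPM) and Zfp523 (a relative of Zfp143, mean 72.9 CPM). Between the genotypes, Zfp318, Zfp574, Zfp598 and Zfp523 were not called at either time. Zfp57, which protects imprints in embryos and oocytes, averaged 4.66 CPM and was called in none of the comparisons. Zfp143, an activator that binds promoters, averaged 20.0 CPM and was likewise not called.

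The genotypes were first compared in the 260 h libraries, over all their kept cells. These libraries were labelled early pachytene but were mixed. In KO libraries 1 to 3, 23 of 82, 20 of 70 and 18 of 50 kept cells were annotated pre-meiotic. In WT libraries 1 to 3 these were 24 of 52, 11 of 68 and 17 of 89. One member was called (0.741% of those tested, beside 1.31% of all genes called lower), Zfp820 (chr17:21816885-21845772, minus strand). It was at 9.18, 9.44 and 12.1 CPM in the KO libraries, against 152, 173 and 181 CPM in the WT libraries. The lowest WT library was far above the highest KO library, and the log2 fold change was −4.04 ± 0.40 (SE; edgeR quasi-likelihood adjusted p = 2.03e-04). In the 22 alternative settings tried the log2 fold change ran from −4.37 to −3.89. The call held in each setting that kept more than 1 library per group. Summed over a library, fewer cells with the transcript and less transcript per cell cannot be told apart. The counts of single cells, which could separate them, were not examined here.

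**Figure D1:**
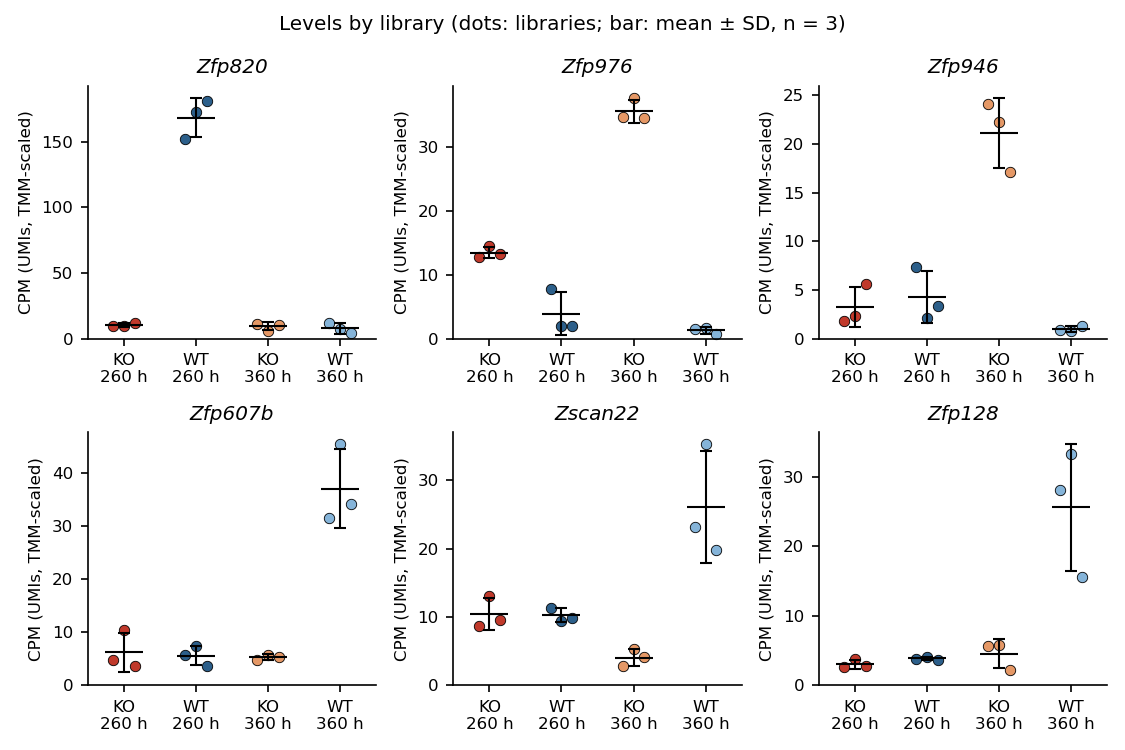
CPM (UMIs scaled to the TMM-normalised library size) of 6 members in each of the 12 libraries, KO left of WT at 260 h and then at 360 h; dots are libraries and bars the mean ± SD of 3. Zfp820 stands at 152 to 181 CPM in WT libraries at 260 h and at 4.03 to 12.1 CPM in the other 9 libraries, while Zfp976 and Zfp946 are high in KO at 360 h and Zfp607b, Zscan22 and Zfp128 are high in WT at 360 h.

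In either direction, 1.89% of all genes were called at 260 h, and 3 of 223 zinc finger genes elsewhere (1.35%). No member was called higher, beside 0.582% of all genes. At an unadjusted p under 0.05 there were 5 members. The groups did not overlap for 14 members (10.4%, beside 14.6% of all genes). The median log2 fold change of the members was 0.01, beside −0.01 for all genes. Zfp976 was the nearest to a second call: the KO libraries were at 12.8, 14.5 and 13.2 CPM and the WT libraries at 7.80, 1.96 and 1.89 CPM, with a log2 fold change of 1.85 ± 0.53 (adjusted p = 0.103). WT library 1 stood above its group, and without it the change was 2.73 (adjusted p = 0.00612). DESeq2, limma-voom and the fits limited to pachytene cells also called Zfp976 higher. Zfp30, at 12.6, 6.98 and 9.47 CPM in KO and 3.07, 1.42 and 1.38 CPM in WT libraries, was called by DESeq2 only (2.30, adjusted p = 0.0260). Zfp27 was called lower only when pre-meiotic cells were left out (−2.45, adjusted p = 0.0492) or when only cells of the early pachytene class were used (−2.51, adjusted p = 0.0426).

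The zinc finger genes beside Zfp820 were not called at 260 h. Zfp229, on its proximal side, averaged 19.6 ± 6.07 CPM in KO and 13.0 ± 2.96 CPM in WT libraries (SD, n = 3 each; log2 fold change 0.60, adjusted p = 0.624). Zfp995, on its distal side, averaged 4.13 ± 1.61 CPM in KO and 2.17 ± 1.43 CPM in WT libraries (0.95, adjusted p = 0.523), and Zfp942 was not called either (0.48, adjusted p = 0.683). The pseudogene Gm9818 (chr17:21808186-21808444, plus strand), downstream of Zfp820 and on the other strand, was called lower: 1.04 ± 0.706 CPM in KO and 32.6 ± 24.9 CPM in WT libraries (−5.03, adjusted p = 0.00504). A further pseudogene downstream, 4930515G13Rik (chr17:21801159-21801658, minus strand), is on the strand of Zfp820. It was at 1.04 ± 1.10 CPM in KO and 7.31 ± 4.96 CPM in WT libraries and was not called (−2.75, adjusted p = 0.183). Both pseudogenes were chosen after their values were seen. The sources used here do not say whether reads were counted by strand, so transcripts of the opposite strands there cannot be told apart.

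By 360 h the Zfp820 transcript was low in both genotypes. It was at 11.3, 5.84 and 10.6 CPM in KO libraries and at 12.01, 7.36 and 4.03 CPM in WT libraries, and the groups overlapped (log2 fold change 0.26 ± 0.36, adjusted p = 0.650). The genotype effect at 360 h less that at 260 h was 4.30 ± 0.53 (adjusted p = 4.52e-04). Within WT, Zfp820 fell to 7.80 ± 4.01 CPM at 360 h, against 169 ± 15.1 CPM at 260 h (−4.44 ± 0.41, adjusted p = 7.77e-06), while in KO it was at 9.27 ± 2.99 CPM at 360 h and 10.3 ± 1.64 CPM at 260 h (−0.14 ± 0.37, adjusted p = 0.816). The 260 h genotype comparison and the WT time comparison share the 3 WT libraries of 260 h.

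The authors' 5 k-means clusters place these levels by cell state. They were made from the same cells, so the levels are a description. At 260 h the KO libraries fell into cluster 1 (annotated pre-meiotic) and cluster 3 (early pachytene). WT libraries 1 and 2 fell mostly into clusters 1 and 2 (early pachytene) and WT library 3 into clusters 1 and 3. In cluster 1, Zfp820 was at 7.34, 12.9 and 8.64 CPM in the KO libraries and 33.3, 60.1 and 48.3 CPM in the WT libraries of 260 h. In cluster 3 it was at 11.1, 7.82 and 20.6 CPM in the KO libraries and 219 CPM in WT library 3. Cluster 2 of WT libraries 1 and 2 was at 313 and 228 CPM. In cluster 1 the 3 KO libraries were below the 3 WT libraries, and in cluster 3 they were below the 1 WT library with enough cells there. At 360 h 220 KO cells were in cluster 4, 19 in cluster 1 and 7 in cluster 2, and 267 WT cells were in cluster 5 and 5 in cluster 1. Clusters 4 and 5 were both annotated late pachytene, with Zfp820 at 9.15 ± 3.19 CPM in cluster 4 of KO and 6.23 ± 3.48 CPM in cluster 5 of WT libraries (SD, n = 3 each).

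**Figure D2:**
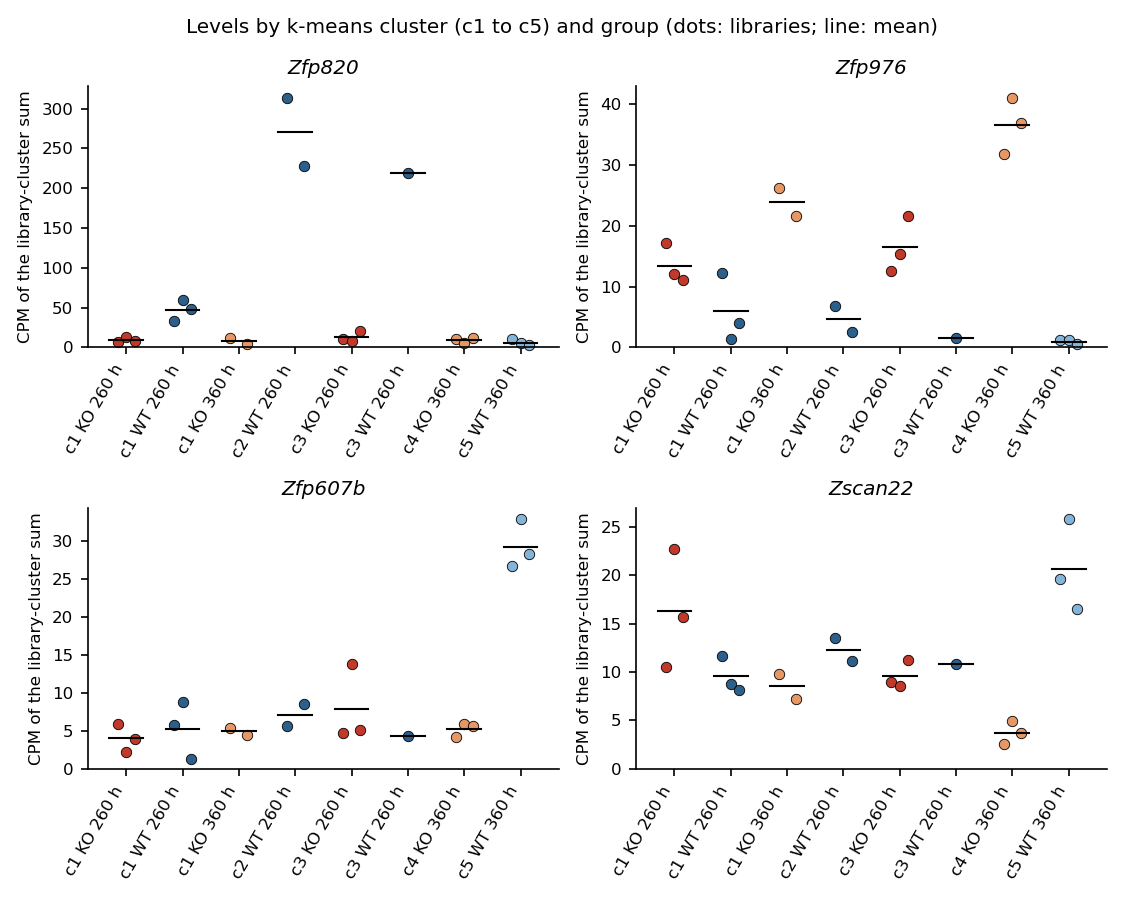
CPM of 4 members in sums of at least 5 cells per library, k-means cluster (c1 to c5) and group; dots are libraries and lines their means, and cluster 2 of KO at 360 h, with 1 library, is not drawn. Zfp820 is at 313, 228 and 219 CPM in the WT early pachytene sums and at 20.6 CPM or less in every KO sum, and Zfp976 is above 30 CPM in cluster 4 of KO libraries and at about 1 CPM in cluster 5 of WT libraries.

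The genotypes were then compared in the 360 h libraries, labelled late pachytene, again over all kept cells. There 35 of 135 members were called (25.9%), beside 22.5% of all genes and 47 of 223 zinc finger genes elsewhere (21.1%). Of these, 18 were higher in KO (13.3%, beside 8.93% of all genes) and 17 lower (12.6%, beside 13.5%). With libraries scaled by their spike-in UMIs, the median of all genes lay at −0.48 in place of 0.03. In that fit 23 of 135 members were called, beside 18.4% of all genes, and the median member lay at −0.68. Without that scaling the median member stood at −0.04. The libraries of the groups did not overlap for 72 members (53.3%, beside 44.2% of all genes). Leaving out KO library 3 of 360 h left 18 calls among 139 tested members, beside 11.8% of all genes. Of the 35 members, 13 were called in all 22 alternatives: Zfp976, Zfp946, Zfp235, Zfp945 and Zfp36l2 among the higher ones, and Zfp607b, Zscan22, Zfp128, Zfp667, Zscan18, Zfp180, Zfp51 and Zfp942 among the lower ones.

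**Figure D3:**
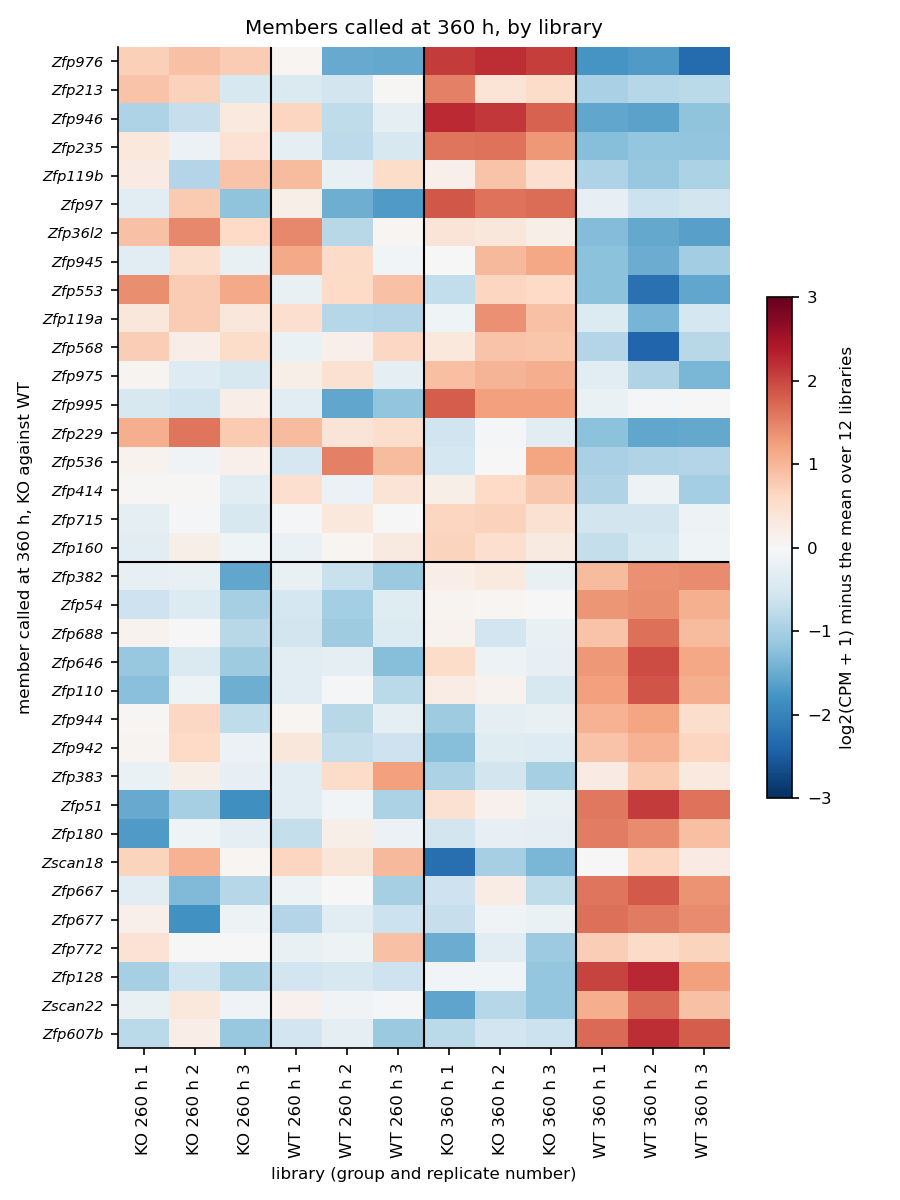
The 35 members called between KO and WT at 360 h (rows, ordered by log2 fold change, 18 higher above the black line and 17 lower below it) in the 12 libraries (columns); colour is log2(CPM + 1) minus the member's mean over the 12 libraries. The KO libraries of 360 h are redder than the WT libraries of 360 h above the line and bluer below it.

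Zfp976 (chr7:42609526-42642588, minus strand) rose the most among the named members. These were chosen among called members whose KO and WT libraries did not overlap, so the gap between the groups follows from the choice. It was at 34.7, 37.7 and 34.5 CPM in KO libraries and at 1.47, 1.603 and 0.708 CPM in WT libraries (log2 fold change 4.84 ± 0.59, adjusted p = 4.24e-05). All KO libraries were more than an order of magnitude above all WT libraries. The adjacent Zfp975 (chr7:42660105-42692742) was at 19.7, 21.6 and 22.8 CPM in KO and 7.79, 4.90 and 3.32 CPM in WT libraries (2.00 ± 0.43, adjusted p = 0.00372). The last 500 bases of the Zfp976 transcripts share 42.9% of their 31-base words with other genes, most with Zfp975, and those of Zfp975 share 60.4%, so how reads were split between these genes is uncertain. Zfp715, in the same array, was at 36.0 ± 3.22 CPM in KO and 17.4 ± 3.04 CPM in WT libraries (1.05 ± 0.29, adjusted p = 0.0181).

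Zfp946 (chr17:22424222-22456689, plus strand) was at 24.1, 22.2 and 17.1 CPM in KO libraries and at 0.825, 0.755 and 1.33 CPM in WT libraries of 360 h (log2 fold change 4.41 ± 0.63, adjusted p = 1.64e-04). At 260 h it was low in both genotypes, at 1.84, 2.33 and 5.56 CPM in KO and 7.33, 2.13 and 3.35 CPM in WT libraries. Zfp235 (chr7:24134169-24143241, plus strand) was at 19.3, 19.7 and 15.5 CPM in KO and 1.74, 1.98 and 1.95 CPM in WT libraries of 360 h (3.25 ± 0.46, adjusted p = 1.47e-04). For both genes the KO libraries of 360 h stood above all libraries of 260 h as well. Zfp945, next in order after Zfp946 on chromosome 17, was at 13.5 ± 5.39 CPM in KO and 2.55 ± 0.558 CPM in WT libraries (2.40 ± 0.52, adjusted p = 0.00390).

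Zfp568, a KRAB protein that in mouse embryos silences a placental transcript of Igf2, was higher in KO at 360 h, at 31.7 ± 6.39 CPM against 7.80 ± 4.23 CPM in WT libraries (log2 fold change 2.02 ± 0.44, adjusted p = 0.00382). Zfp36l2, an mRNA-binding protein that speeds mRNA decay, was at 5.90 ± 0.493 CPM in KO and 1.01 ± 0.250 CPM in WT libraries (2.55 ± 0.64, adjusted p = 0.00997) and overlaps the exons of another gene. Zfp553 (2.24 ± 0.52, adjusted p = 0.00559) overlaps Sept1. Zfp97 (2.65 ± 0.82, adjusted p = 0.0292) shares 93.4% of the 31-base words of its end with other genes, chiefly its neighbour Zfp960. Zfp995 rose by 1.73 ± 0.52 (adjusted p = 0.0262), Zfp414, which overlaps Gm20507, by 1.29 ± 0.41 (adjusted p = 0.0332) and Zfp536, a repressor of neuronal differentiation, by 1.37 ± 0.48 (adjusted p = 0.0493). In Zfp536 the KO libraries were at 18.8, 27.8 and 64.2 CPM and the WT libraries at 13.7, 14.3 and 14.7 CPM.

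Some of these calls rested on the full set of libraries. Zfp97 and Zfp995 lost the call without any single library of 360 h (adjusted p of 0.0601 to 0.102 and of 0.0592 to 0.113). Zfp414 lost it without WT library 1 or 3 or KO library 2 or 3 of 360 h (0.119 to 0.144), and Zfp715 without WT library 1 or 2 or any KO library of 360 h (0.0562 to 0.103). Zfp536 lost it without WT library 3 of 260 h, any KO library of 260 h, any WT library of 360 h or KO library 2 or 3 of 360 h (0.0552 to 0.359), and its log2 fold change without KO library 3 was 0.73. Under spike-in scaling Zfp97, Zfp553, Zfp568, Zfp975, Zfp995, Zfp536, Zfp414 and Zfp715 were not called (adjusted p of 0.0535 to 0.574). The other members called higher were Zfp213, Zfp119b, Zfp119a, Zfp229 and Zfp160, with log2 fold changes from 0.94 to 4.83. Zfp213, the largest of these, was at 4.66, 1.64 and 1.90 CPM in KO and 0, 0.0943 and 0.133 CPM in WT libraries.

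Among the members lower in KO at 360 h, Zfp607b (chr7:27689340-27706484, plus strand) was at 4.66, 5.74 and 5.35 CPM in KO libraries and 31.5, 45.6 and 34.2 CPM in WT libraries (log2 fold change −2.82 ± 0.47, adjusted p = 5.26e-04). Zscan22, a SCAN domain zinc finger gene (chr7:12897815-12909083, plus strand), was at 2.77, 5.23 and 4.08 CPM in KO and 23.2, 35.4 and 19.7 CPM in WT libraries (−2.69 ± 0.42, adjusted p = 3.36e-04). Its neighbour Zfp128 (chr7:12881177-12893422, plus strand) was at 5.67, 5.74 and 2.18 CPM in KO and 28.1, 33.3 and 15.5 CPM in WT libraries (−2.502 ± 0.49, adjusted p = 0.00187). That no KO library reached the lowest WT library in these genes was a condition of naming them. At 260 h Zfp607b was at 3.5003 to 10.4 CPM in KO and 3.64 to 7.29 CPM in WT libraries, and Zfp128 at 2.57 to 3.69 CPM in KO and 3.64 to 4.09 CPM in WT libraries.

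Further along the same stretch of chromosome 7, Zscan18 was at 8.25 ± 3.73 CPM in KO and 30.5 ± 7.46 CPM in WT libraries (log2 fold change −1.88 ± 0.39, adjusted p = 0.00296). Zfp110 was at 83.2, 77.9 and 51.2 CPM in KO and 169.6, 267 and 155 CPM in WT libraries (−1.48 ± 0.37, adjusted p = 0.00862), the largest loss in CPM at 360 h among the named members. On chromosome 17, Zfp51 was at 16.0 ± 4.02 CPM in KO and 52.1 ± 10.9 CPM in WT libraries (−1.70 ± 0.38, adjusted p = 0.00433). Its neighbours Zfp677 (−2.03 ± 0.54, adjusted p = 0.0138) and Zfp54 (−1.27 ± 0.33, adjusted p = 0.0119) were lower too, and so were Zfp942 (−1.52 ± 0.38, adjusted p = 0.00989) and Zfp944 (−1.49 ± 0.43, adjusted p = 0.0209) of the same array.

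Zfp667 (−2.02 ± 0.43), Zfp180 (−1.76 ± 0.46) and Zfp383 (−1.53 ± 0.51, adjusted p = 0.0422) were also lower in KO. Leaving out KO library 3 of 360 h took the calls of Zfp677 (adjusted p = 0.0524), Zfp944 (0.0589) and Zfp110 (0.0688), and leaving out WT library 1 of 360 h that of Zfp944 (0.0567). Zfp383 lost its call without any of the 360 h libraries, any KO library of 260 h or WT library 2 of 260 h (adjusted p of 0.0507 to 0.170). The other members called lower were Zfp772, Zfp646, Zfp688 and Zfp382, with log2 fold changes from −2.19 to −1.19. Zfp646 and Zfp54 share exon bases with other genes.

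**Figure D4:**
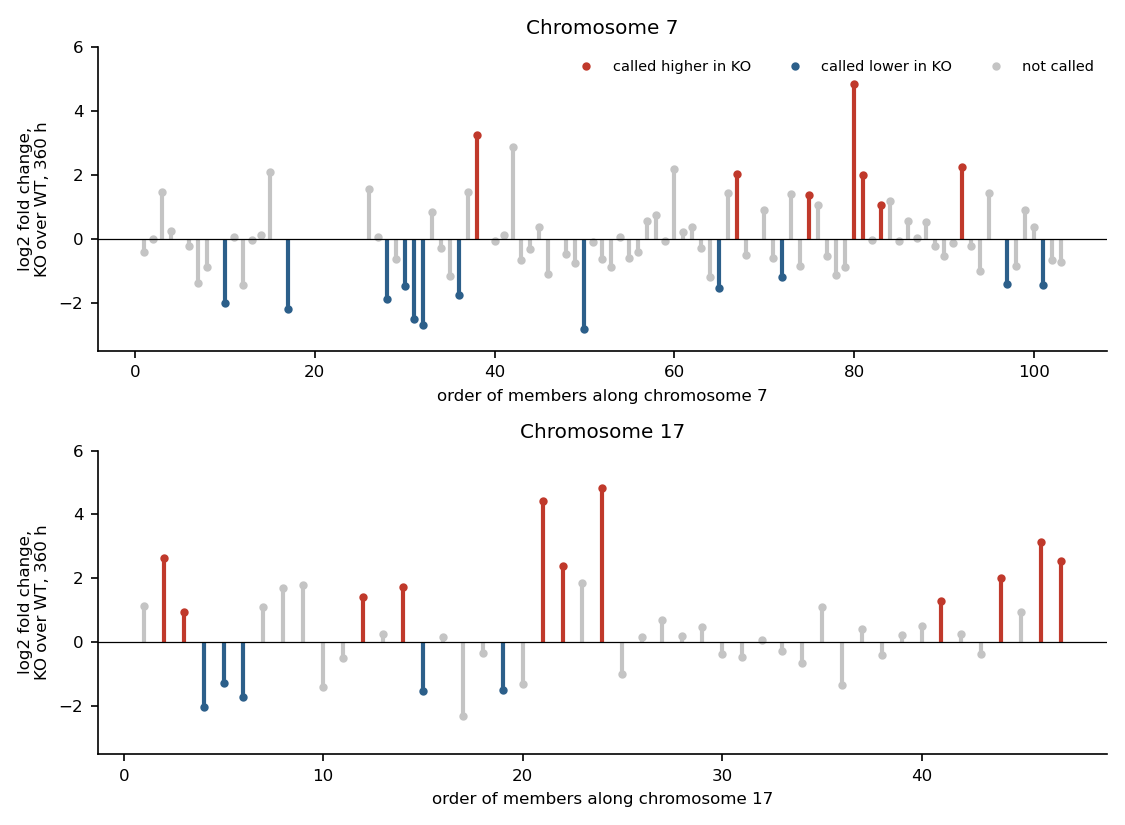
Log2 fold change of KO over WT at 360 h (vertical axis) for the tested members, in their order along chromosomes 7 and 17 (horizontal axis; gaps are members not tested). On chromosome 7, 7 members were called higher and 12 lower, and on chromosome 17, 11 higher and 5 lower; called members of both directions stand beside members that were not called.

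Members were grouped into arrays wherever neighbours lay within 1 Mb. The counts per array and chromosome at 360 h stand beside 8.93% of all genes called higher and 13.5% called lower. In the array of chromosome 7 between 10900740 and 12985714, 0 of 9 tested members were higher and 4 lower in KO at 360 h (Zscan18, Zfp110, Zfp128 and Zscan22). In that between 41633203 and 43618285, 3 of 10 were higher (Zfp976, Zfp975 and Zfp715) and 0 lower. In the array of Zfp667 and Zfp772 these 2 of 9 were lower. Other arrays of chromosome 7 held calls in both directions: Zfp235 higher and Zfp180 lower among 12 tested, Zfp568 higher and Zfp383 and Zfp382 lower among 14, and Zfp553 higher and Zfp688 and Zfp646 lower among 9. The largest array, on chromosome 17 between 21008903 and 23611019, had 24 tested members, of which 6 were higher and 5 lower. There, higher and lower members were interleaved: Zfp160 was higher, Zfp677, Zfp54 and Zfp51 lower, Zfp229 and Zfp995 higher and Zfp942 lower. By chromosome, 7 members were higher and 12 lower of 88 tested on chromosome 7, and 11 were higher and 5 lower of 47 tested on chromosome 17. No test was made of these counts.

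Zfp541 itself lies on chromosome 7 (chr7:16061814-16096334), so the members nearest to it were looked at for a local effect. To the left lay Zfp446, Zfp324, Zscan22, Zfp128 and Zfp110, at 3076 to 3211 kb, and to the right Zfp296 at 3481 kb and then Zfp180, Zfp112, Zfp235 and Zfp114 at 7986 to 8079 kb. At 260 h none of the 9 tested was called (beside 1.89% of all genes). At 360 h Zscan22, Zfp128, Zfp110 and Zfp180 were lower in KO and Zfp235 was higher. Of all genes, 13.5% were called lower and 8.93% higher at 360 h. Whether nearness to Zfp541 plays a part was not tested. The log2 fold changes of the 2 closest, Zfp446 and Zfp324, were −0.28 ± 0.38 (adjusted p = 0.638) and 0.84 ± 0.59 (adjusted p = 0.328).

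**Figure D5:**
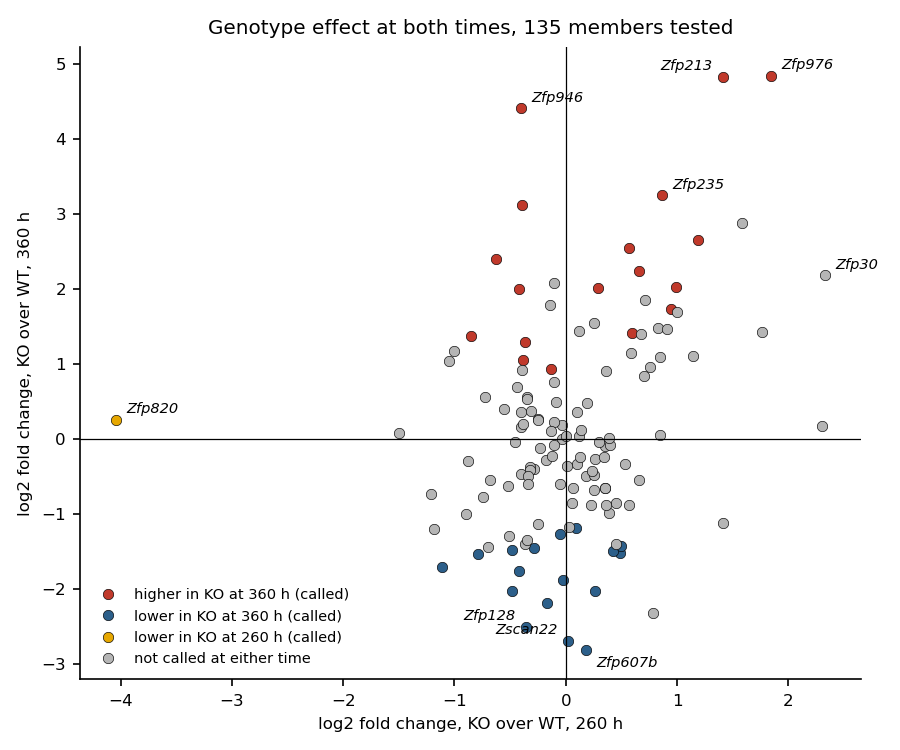
Log2 fold change of KO over WT at 260 h (horizontal axis) and at 360 h (vertical axis) for the 135 members tested; colours mark the call by edgeR's quasi-likelihood test at an adjusted p under 0.05. Zfp820 lies alone at −4.04 and 0.26, and the members called at 360 h lie between −1.11 and 1.85 at 260 h.

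The genotype effect at 360 h differed from that at 260 h for 10 members (7.41%, beside 5.08% of all genes), being higher at 360 h for 6 (beside 2.3% of all genes) and lower for 4 (beside 2.78%). Besides Zfp820, the effect was higher at 360 h for Zfp946 (4.81 ± 0.84, adjusted p = 0.00400), Zfp945, Zfp976, Zfp975 and Zfp235. It was lower for Zfp607b (−2.998 ± 0.65, adjusted p = 0.0142), Zscan22 (−2.71 ± 0.58, adjusted p = 0.0132), Zfp942 and Zfp688. Zfp820 and Zfp946 were called in each fit that left out 1 library. Leaving out KO library 3 of 360 h left only these 2 of the 10, and each other library of 360 h or of KO at 260 h left 4 to 7.

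Between the times, 61 of 135 members (45.2%, beside 39.9% of all genes) were called in WT, 35 higher (beside 20.9%) and 26 lower (beside 18.9%) at 360 h. Zfp607b was at 37.1 ± 7.44 CPM at 360 h and 5.54 ± 1.83 CPM at 260 h (log2 fold change 2.76 ± 0.47, adjusted p = 3.70e-04). Zfp128 (2.74 ± 0.50), Zfp59 (2.499 ± 0.48), Zfp788 (2.49 ± 0.43) and Zfp607a (2.43 ± 0.53) rose as well, though Zfp59 shares 60.4% of its end with other genes. Besides Zfp820, the members with a mean of at least 5 CPM and no overlap between the times that fell the most were Zfp710 (−2.96 ± 0.65), Zfp36 (−2.95 ± 0.76), the mRNA decay factor induced early after stimulation, Zfp553 (−2.46 ± 0.52) and Zfp229 (−2.46 ± 0.44). Zfp870 was at 34.1, 4.27 and 2.84 CPM in the WT libraries of 260 h. Its direction turned without WT libraries 1 and 2 of 260 h, which both held Leydig cell transcripts. Library 1, the one with the high Zfp870 value, also held 473 CPM of blood and immune markers, against 24.9 CPM in library 2. The source of the Zfp870 counts was not tested. With spike-in scaling the median of all genes lay at 0.33 in place of −0.10. In that fit 48 members were called, beside 30.2% of all genes, and the median member lay at 0.37 in place of −0.06.

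In KO, 38 members were called between the times (28.1%, beside 23.5% of all genes), 25 higher (beside 13.3%) and 13 lower (beside 10.2%) at 360 h. Zfp946 was at 21.2 ± 3.60 CPM at 360 h and 3.24 ± 2.02 CPM at 260 h (log2 fold change 2.73 ± 0.59, adjusted p = 0.00386). Zfp940 (2.42 ± 0.52), Zfp524 (2.18 ± 0.60), Zfp960 (2.03 ± 0.64) and Zfp995 (1.93 ± 0.53) rose too. Zscan18 fell to 8.25 ± 3.73 CPM at 360 h, against 38.6 ± 12.7 CPM at 260 h (−2.22 ± 0.40, adjusted p = 0.00116), while in WT it was at 30.5 ± 7.46 CPM at 360 h and 39.3 ± 8.60 CPM at 260 h (−0.37 ± 0.38, adjusted p = 0.464). Zscan22 was lower at 360 h in KO (−1.36 ± 0.41, adjusted p = 0.0265) and higher at 360 h in WT (1.36 ± 0.40, adjusted p = 0.0146). Zfp428 (−2.52 ± 0.74), Zfp768 (−2.36 ± 0.61), Zfp580 (−2.34 ± 0.64) and Zfp30 (−2.12 ± 0.73, adjusted p = 0.0470) were also lower. Leaving out any one KO library left 11 to 24 calls (beside 12.4% to 17.4% of all genes). Spike-in scaling gave 16 calls (beside 12.7% of all genes). It moved the median member from 0.10 to 0.28, and the median of all genes from −0.15 to 0.04. Of the members named here, Zfp524, Zfp960, Zfp995, Zfp428, Zfp768, Zfp580 and Zfp30 each lost the call without at least 1 KO library (adjusted p of 0.0514 to 0.175), and Zfp946, Zfp940 and Zscan18 kept it without any single library.

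The groups did not overlap between the times for 79 members in WT (58.5%, beside 50.6% of all genes) and for 69 in KO (51.1%, beside 46.0%). Zfp574 rose in both genotypes, by 1.26 in WT (adjusted p = 0.00222) and by 1.20 in KO (adjusted p = 0.00607). Zfp473, whose protein takes part in histone mRNA processing, was higher at 360 h in WT (1.41, adjusted p = 0.0332) and was not called in KO (1.04, adjusted p = 0.138). The difference between the genotypes in Zfp473 was not called.

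Partners through which KRAB zinc finger proteins act were read beside the members. The list also held Kctd19, a partner of ZFP541, and Trim24 and Trim33. Tasor was planned for it too but was not found under that symbol. Of the 19 listed genes tested, 0 were called between the genotypes at 260 h (beside 1.89% of all genes, with 2 at an unadjusted p under 0.05). At 360 h 5 were called, 2 higher and 3 lower (26.3%, beside 22.5% of all genes). Trim28, the scaffold that the KRAB domain binds, was at 246 ± 20.3 CPM in KO and 438 ± 45.1 CPM in WT libraries (log2 fold change −0.83 ± 0.29, adjusted p = 0.0495). Cbx5, which encodes the heterochromatin protein HP1 alpha, was at 169 ± 22.2 CPM in KO and 349 ± 27.3 CPM in WT libraries (−1.05, adjusted p = 0.0163), and Trim24, a relative of Trim28, changed by −1.14 (adjusted p = 0.00395). Cbx3, for HP1 gamma, rose by 1.14 (adjusted p = 0.0343), and Smarcad1, a chromatin remodeller that binds TRIM28, by 1.78 (adjusted p = 0.00966). Setdb1 was not called (0.64, adjusted p = 0.0916), nor was Kctd19 (−0.35, adjusted p = 0.376). These 5 calls were not recomputed under the alternative settings.

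The members whose pattern over the 12 libraries was most like that of Zfp820 were Zfp668 (Pearson r = 0.74 of log2(CPM + 1)), Zfp420 (0.74) and Zfp28 (0.69). Those most like Zfp976 were Zfp235 (0.95), Zfp146 (0.86) and Zfp946 (0.84). The 12 libraries are 4 groups of 3 and share the same scaling, so these values are a description.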

How the data were processed

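The deposited counts are UMIs per gene and cell barcode, made by the authors for 12 libraries. Per the submitters' processing notes, the tools were STAR 2.5.3a, featureCounts 1.6.4 and UMI-tools 1.0.0, with the mm10 mouse genome; their settings, and whether counting used strand, are not stated in the sources used here. Clusters, cluster names and the set of 929 kept cells are the authors' deposited annotation. Counts of kept cells were summed per library (3601518 to 27202665 gene UMIs); the 92 ERCC spike-ins (6.35% of UMIs) were left out of library sizes.

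The sums were tested with edgeR 4.0.16 (R 4.3.3; TMM scaling, filterByExpr, quasi-likelihood F-test, 1 coefficient per group) over 20279 genes, with Benjamini-Hochberg adjustment over all of them, and a gene was called at an adjusted p under 0.05. All adjusted p-values are from this test unless another tool is named. The common biological coefficient of variation was 0.486. The script was tested on simulated data. CPM were computed on TMM-scaled library sizes and cannot be compared between genes as molecules per length. Alternatives were DESeq2 1.42.0, limma-voom (limma 3.58.1), spike-in scaling, no filter on low counts, only the libraries compared, a replicate block, each library left out, WT libraries 1 and 2 of 260 h left out, no pre-meiotic cells, only the pachytene class, and cells thinned to 40000 UMIs.

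Named members are up to 12 per direction for each genotype comparison, and up to 5 for the others, with the largest log2 fold change among called members with a mean of at least 5 CPM and no overlap between groups. Beside them stand the 5 best expressed, the 5 nearest to Zfp541 on each side and the 3 most alike in pattern. The other members named, and the pseudogenes Gm9818 and 4930515G13Rik, were chosen after their values were seen. The members and lists were chosen with earlier results of these data known. Of the members, 35 share exon bases with another gene and 42 share over 10% of the 31-base words of their last 500 transcript bases with other genes. Promoters and their coordinates are RefSeq, GRCm38.p6. The labels do not say that equal replicate numbers pair libraries, so the main fit held no replicate block.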

Additional observations from a re-analysis of the deposited data

Results flagged for a closer look

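For 10 members the genotype effect (KO over WT, log2) differed between 360 h and 260 h by a test of that difference in edgeR. The effect at 360 h less that at 260 h was 4.30 for Zfp820 (adjusted p = 4.52e-04), which was lower in KO at 260 h, and 4.81 for Zfp946 (adjusted p = 0.0040), which was higher in KO at 360 h. It was 3.03 for Zfp945 (adjusted p = 0.0249), 2.99 for Zfp976 (0.0307), 2.42 for Zfp975 (0.0309) and 2.39 for Zfp235 (0.0357), all higher in KO at 360 h. It was −2.71 for Zscan22 (adjusted p = 0.0132), −2.998 for Zfp607b (0.0142), −1.93 for Zfp688 (0.0362) and −2.00 for Zfp942 (0.0421), all lower in KO at 360 h. Spike-in scaling left 3 of the 10 calls. No group held more than 3 libraries, so no library was tested as standing apart within its group.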

How the results depend on the processing

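Percentages in brackets are the shares of all genes called in the same fits. At 260 h the 1 member called became 3 with DESeq2 (4.70%) and 2 with limma-voom (0.868%). It became 3 without pre-meiotic cells (3.17%), 3 with the early pachytene class alone (3.08%) and 1 to 2 with 1 library left out (0.518% to 2.59%). At 360 h the 35 became 23 with spike-in scaling (18.4%) and 18 to 36 with 1 library left out (11.8% to 22.5%). The 18 were without KO library 3 of 360 h (11.8%). In WT the 61 calls between the times became 45 to 60 with 1 library left out (28.2% to 40.1%). Without WT libraries 1 and 2 of 260 h, the remaining WT library of 260 h was assumed to vary like the other groups. Call counts are therefore not given for that fit, though the 1179 alternatives counted below include it. In KO the 38 became 16 with spike-in scaling (12.7%), 25 with no filter on low counts (8.78%) and 11 to 41 with 1 library left out (12.4% to 22.6%). The 10 differences became 21 with DESeq2 (10.7%), 3 with spike-in scaling (2.01%) and 2 to 10 with 1 library left out (2.18% to 5.09%). The cause of these moves was not tested. The deviations of libraries with the same number correlated at −0.199 to 0.223. This cannot settle whether equal numbers mark a shared animal or day, and the labels do not say. A replicate block gave 1, 31, 53, 34 and 7 calls in the same order of comparisons (1.67%, 19.9%, 36.1%, 21.7% and 3.82%). Over 54 named results and 1179 alternatives, 1003 kept direction and call, 176 lost the call and 0 turned direction. Under spike-in scaling the median of all genes shifted to −0.28 at 260 h and −0.48 at 360 h, and to 0.33 in WT and 0.04 in KO between the times. With only the libraries compared, the difference between the genotype effects has no value, since it uses all 12. Depth limited the set to 135 of 150 members.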

Other observations

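The list of KRAB partners also held Kctd19, Trim24 and Trim33. Of its 19 genes, 5 were higher and 4 lower at 360 h than at 260 h in WT (26.3% and 21.1%, beside 20.9% and 18.9% of all genes). In KO 1 was higher, Kctd19 itself, and 7 were lower (5.26% and 36.8%, beside 13.3% and 10.2% of all genes). For the difference between the genotypes' changes over time 0 of the 19 were called by edgeR (beside 5.08% of all genes), with 3 at an unadjusted p under 0.05. Zinc finger genes elsewhere were called as often higher (39, or 17.5%) as lower (39) between the times in WT, and 26 were higher (11.7%) and 23 lower (10.3%) in KO, beside the shares of all genes already given.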
